A study of Caenorhabditis elegans with 12 samples.

Results

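The genes described here are 10 Caenorhabditis elegans genes for mitochondrial fission, fusion and mitophagy. They are drp-1, fzo-1, eat-3, dct-1, fndc-1, allo-1, pink-1, pdr-1, lgg-1 and lgg-2. They were taken by name, not by measured value, from a table of 19568 genes, and all 10 were found and tested. RNA of whole worms at the L4 larval stage, grown on the E. coli strain HT115, was sequenced in 12 libraries, with 4 genotypes and, per the labels, 3 biological replicates each. Worms were of the double mutant lonp-1(cmh24)_mrps-38(P210L), lonp-1(cmh24), mrps-38(P210L) and wildtype. The labels name the wildtype libraries N2. No RNA interference construct or drug is named for any group. The product of lonp-1 is LON, a protease in the matrix of mitochondria, and that of mrps-38 is a mitoribosomal protein of the small subunit. The study thus asks what a LON mutation and a mitoribosomal mutation do alone and together. The labels do not say how many lines carried each allele.

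Mitochondria form a network that is cut by fission and joined by fusion, and damaged or surplus mitochondria are removed by autophagy, a process called mitophagy. In fission a dynamin-related GTPase pinches the outer membrane, while separate GTPases fuse the outer and the inner membrane. In mitophagy a mark or a receptor on the outer membrane tethers the organelle to small ubiquitin-like proteins of the Atg8 family on the growing autophagosome. In the worm the same machinery removes the mitochondria that sperm bring into the embryo.

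The libraries held 22614493 to 22890539 reads in genes, with 18072 to 19209 genes detected. The 10 genes had 188 to 8957 reads per library. Their coefficient of variation within a genotype ran from 0.55 to 10.59%, with a median of 3.04%. Markers of body wall muscle, germline, intestine, hypodermis, neurons and pharynx were detected in all 12 libraries. Apart from intestine, mean shares of reads also differed between at least some genotypes, with no test run on the shares. The mean share of 8 hypodermis genes was 0.145% in the double mutant, 0.348% in lonp-1(cmh24), 0.479% in mrps-38(P210L) and 0.623% in wildtype. That of 9 body wall muscle genes was 1.16% in the double mutant, 0.824% in lonp-1(cmh24), 1.41% in mrps-38(P210L) and 1.44% in wildtype. That of 6 pharynx genes was 0.0981% in the double mutant, 0.0656% in lonp-1(cmh24), 0.149% in mrps-38(P210L) and 0.137% in wildtype. Mean shares ran from 0.217 to 0.261% for intestine and from 0.0318 to 0.0544% for neurons. The intestine shares of single libraries overlapped between all genotypes. They were 0.247 to 0.252% in the double mutant, 0.193 to 0.263% in lonp-1(cmh24), 0.249 to 0.268% in mrps-38(P210L) and 0.173 to 0.251% in wildtype. The summed share of reads in 6 yolk (vitellogenin) genes was 2.44 to 2.46% in the double mutant, 0.753 to 1.07% in lonp-1(cmh24), 0.000624 to 0.00383% in mrps-38(P210L) and 0.094 to 0.11% in wildtype. Among 32 major sperm protein genes, of which 31 had reads in every library, it was 0.731 to 0.763% in the double mutant, 0.156 to 0.169% in lonp-1(cmh24), 0.00242 to 0.0167% in mrps-38(P210L) and 0.112 to 0.124% in wildtype. Germline marker shares ran from 0.183 to 0.186% in the double mutant, 0.14 to 0.164% in lonp-1(cmh24), 0.0406 to 0.0468% in mrps-38(P210L) and 0.0966 to 0.106% in wildtype. Replicate 3 of mrps-38(P210L) had the highest yolk and sperm shares of its group. Over genes, its chi-square per degree of freedom was 7.98 and 7.37 against replicates 1 and 2. That of lonp-1(cmh24) replicate 1 was 26.7 and 17.1 against replicates 2 and 3, and wildtype replicates 1 and 2 had 28.9. Within the double mutant it was 2.03 at most. The part of the marker shares in the differences below was not tested. In whole worms, fewer cells of a type and less RNA per cell cannot be told apart. The lonp-1 transcript was present in every genotype, at normalized counts of 1437 ± 44 in the double mutant, 1339 ± 5.8 in lonp-1(cmh24), 1613 ± 49 in mrps-38(P210L) and 1688 ± 62 in wildtype (SD, n = 3 each). The mrps-38 transcript was not analysed here.

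Levels below are the authors' normalized counts, which compare 1 gene between libraries, or FPKM (fragments scaled by gene length and by total reads), which can also be compared between genes. Differences are log2 fold changes ± SE from limma over all 15717 genes tested. A gene is said to be higher, lower or called where the adjusted p (Benjamini-Hochberg) was below 0.05. The FPKM scale divides by total reads instead of a size factor. It moved the median gene by 0.228 in lonp-1(cmh24) against wildtype and by -0.249 in mrps-38(P210L) against wildtype on the log2 scale. Its shift was 0.023 for the double mutant against wildtype, -0.205 for the double mutant against lonp-1(cmh24), 0.275 for the double mutant against mrps-38(P210L) and 0.486 for lonp-1(cmh24) against mrps-38(P210L). A difference smaller than these shifts can depend on the scale, and for the 10 genes the sign on FPKM is given wherever it turned.

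**Figure D1:**
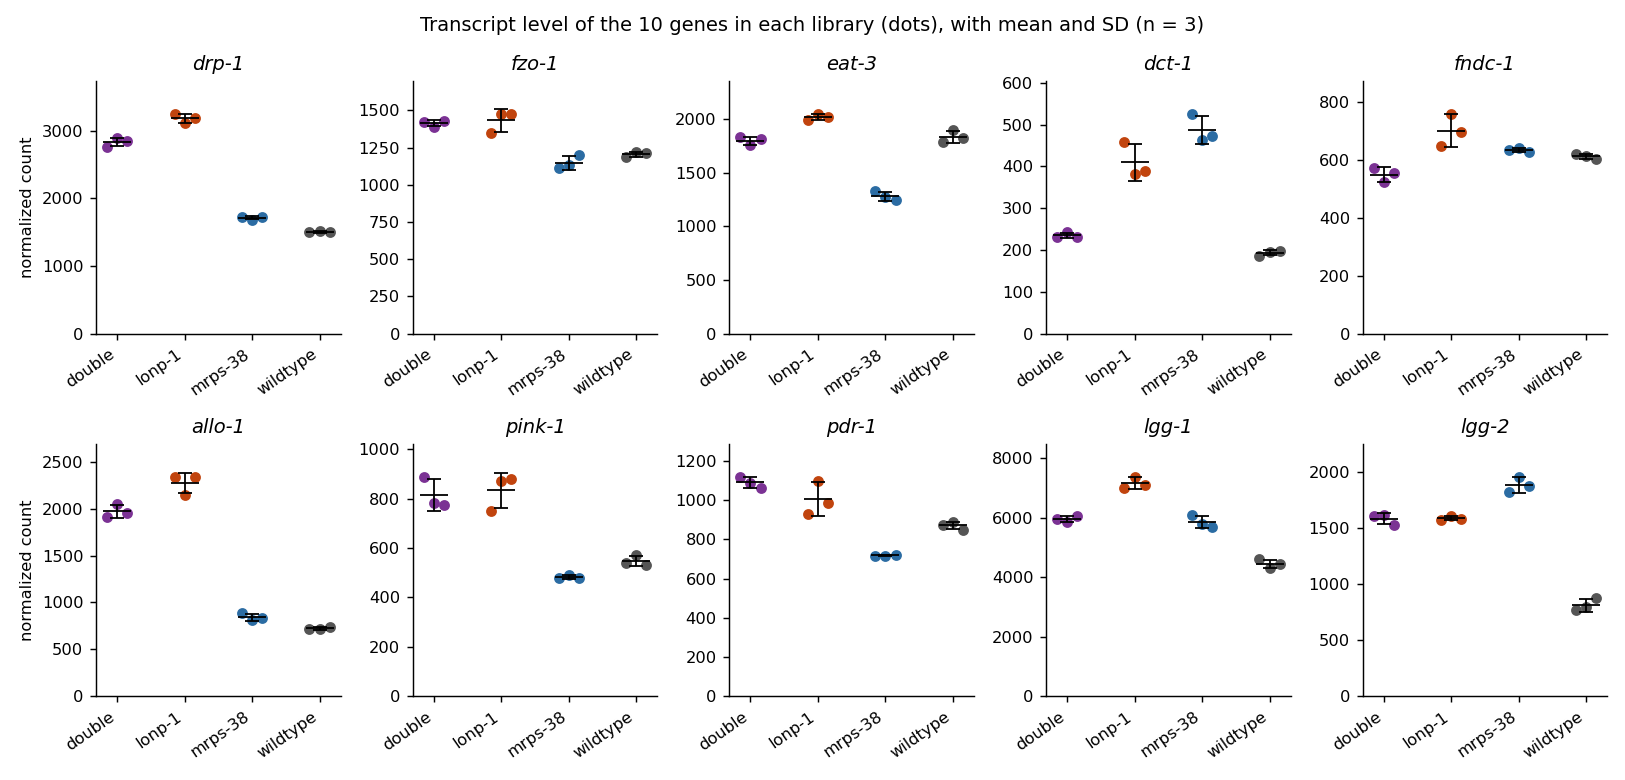
Normalized count (y axis, from 0) of each of the 10 genes in each of the 12 libraries (dots), with the mean and SD of the 3 libraries per genotype (bars). drp-1 and allo-1 are high in the double mutant and in lonp-1(cmh24), lgg-2 is high in all 3 mutants, and dct-1 is high in lonp-1(cmh24) and mrps-38(P210L) but near wildtype in the double mutant.

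Per length, lgg-1 was the most abundant of the 10 transcripts in 12 of 12 libraries. Its mean FPKM was 382.8 ± 8.318 in the double mutant, 533.8 ± 19.39 in lonp-1(cmh24), 311.6 ± 9.893 in mrps-38(P210L) and 282.7 ± 5.138 in wildtype (SD, n = 3). At the low end dct-1 had a mean FPKM of 8.84 in the double mutant, 17.87 in lonp-1(cmh24), 15.22 in mrps-38(P210L) and 7.198 in wildtype. That of pink-1 was 17.55 in the double mutant, 20.82 in lonp-1(cmh24), 8.63 in mrps-38(P210L) and 11.67 in wildtype. In wildtype the other 7 lay between, from fzo-1 at 21.4 and allo-1 at 24.3 to lgg-2 at 35.21 and fndc-1 at 47.26. In lonp-1(cmh24) the mean FPKM of allo-1 was 89.45 and that of lgg-2 was 80.85, both above fndc-1 at 63.37. Thus the order of the 10 genes by FPKM was not the same in every genotype.

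drp-1 encodes the dynamin-related GTPase that divides the outer mitochondrial membrane (WBGene00001093, chromosome IV, 5538488 to 5541365 of WBcel235, plus strand, 4 protein-coding transcripts). Its normalized counts were 2768.5, 2887.9 and 2855.1 in the double mutant, 3250.4, 3112.9 and 3198.0 in lonp-1(cmh24), 1732.2, 1687.6 and 1720.8 in mrps-38(P210L), and 1499.7, 1524.1 and 1499.9 in wildtype. No genotype overlapped another. Every library of the double mutant and of lonp-1(cmh24) stood well above all libraries of mrps-38(P210L) and wildtype. drp-1 was 2.11-fold higher in lonp-1(cmh24) than in wildtype (1.08 ± 0.04, adjusted p = 3.66e-10) and 1.88-fold higher in the double mutant than in wildtype (0.91 ± 0.04, adjusted p = 5.05e-10). The double mutant was a little below lonp-1(cmh24), by -0.17 ± 0.04 (adjusted p = 0.00403). The small difference of mrps-38(P210L) from wildtype, 0.18 ± 0.04 (adjusted p = 0.00146), turned to -0.07 on FPKM.

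fzo-1 encodes the mitofusin that joins outer membranes (WBGene00001509, chromosome II, 5833328 to 5836203, minus strand). Its normalized counts were 1422.9, 1388.7 and 1425.6 in the double mutant, 1345.3, 1475.4 and 1474.7 in lonp-1(cmh24), 1111.2, 1132.2 and 1202.2 in mrps-38(P210L), and 1187.2, 1220.0 and 1211.1 in wildtype. The double mutant and lonp-1(cmh24) overlapped each other and stood above the other genotypes, which also overlapped. fzo-1 was higher than in wildtype by 0.25 ± 0.05 in lonp-1(cmh24) (adjusted p = 0.000943). In the double mutant the difference was 0.23 ± 0.05 (adjusted p = 0.00141), a call lost with TMM size factors (adjusted p = 0.0601). The difference of mrps-38(P210L) from wildtype was -0.07 ± 0.05 (adjusted p = 0.238), and that of the double mutant from lonp-1(cmh24) was -0.02 ± 0.05 (adjusted p = 0.781). On FPKM these were -0.32 and -0.23 and both passed the test.

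eat-3 encodes the homologue of OPA1, the dynamin-like GTPase of inner membrane fusion and cristae (WBGene00001134, chromosome II, 9324874 to 9329665, plus strand). Its normalized counts were 1828.2, 1758.1 and 1809.9 in the double mutant, 1995.3, 2047.3 and 2019.7 in lonp-1(cmh24), 1329.5, 1270.1 and 1246.2 in mrps-38(P210L), and 1782.3, 1894.6 and 1823.1 in wildtype. The 3 mrps-38(P210L) libraries were the lowest, without overlap, while the double mutant overlapped wildtype. eat-3 was lower in mrps-38(P210L) than in wildtype, at 0.70 of its level (-0.52 ± 0.05, adjusted p = 6.5e-07). In the double mutant it differed from wildtype by -0.03 ± 0.05 (adjusted p = 0.596; -0.14 and called with TMM factors) and from mrps-38(P210L) by 0.49 ± 0.05 (adjusted p = 2.64e-07). In lonp-1(cmh24) it was higher than in wildtype by 0.14 ± 0.05 (adjusted p = 0.0152). That call was lost in a fit of those groups alone (adjusted p = 0.0669) and without wildtype replicate 1 (adjusted p = 0.053).

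A ratio of a pair of genes within a library barely depends on how libraries are scaled. The FPKM ratio of drp-1 to fzo-1, fission over outer membrane fusion, was 2.07 ± 0.0692 in the double mutant, 2.3 ± 0.167 in lonp-1(cmh24), 1.54 ± 0.0657 in mrps-38(P210L) and 1.29 ± 0.0128 in wildtype (SD, n = 3). No mutant library came down to the wildtype range, 1.28 to 1.3. The ratio of eat-3 to fzo-1, inner over outer membrane fusion, was 0.984 ± 0.00771 in the double mutant, 1.09 ± 0.0471 in lonp-1(cmh24), 0.864 ± 0.0617 in mrps-38(P210L) and 1.17 ± 0.0222 in wildtype. It was lower in every mutant library than in any wildtype library, where it was 1.16 at least. Each ratio differed among the 4 genotypes in an exact permutation test over all 15400 divisions of the libraries (adjusted p = 8.12e-05 over 5 ratios, from 6.49e-05, the smallest p this design allows).

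**Figure D2:**
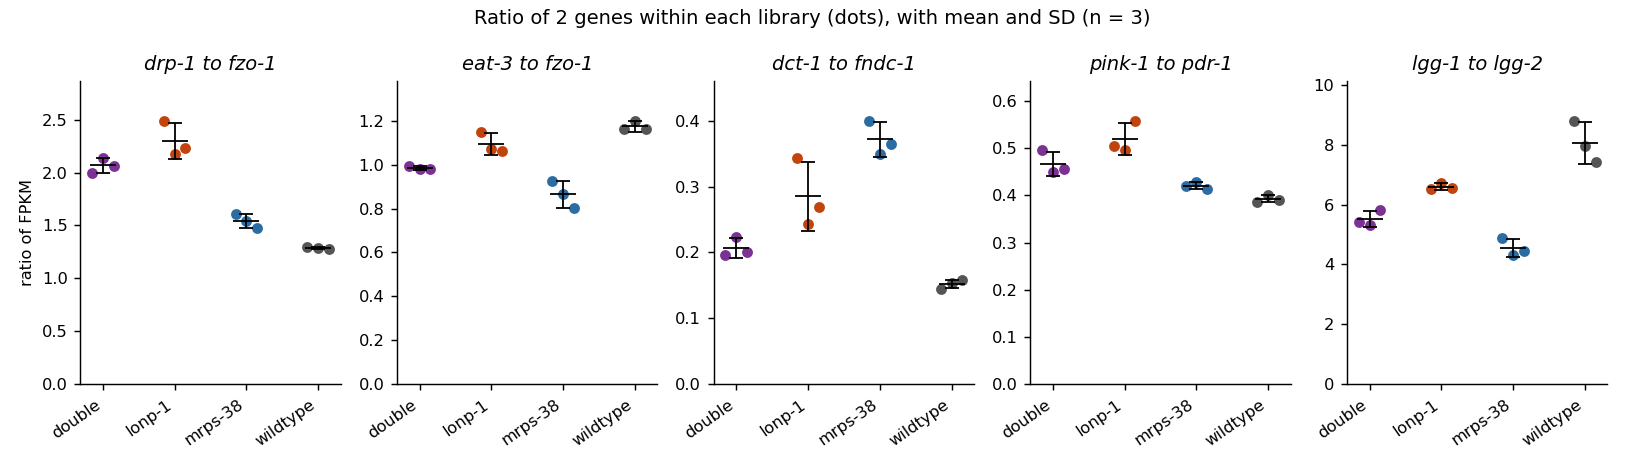
FPKM ratio (y axis, from 0) of 5 pairs of genes within each library (dots), with the mean and SD of 3 libraries per genotype (bars). drp-1 to fzo-1 is above wildtype in all mutants, and lgg-1 to lgg-2 is below wildtype in all mutants.

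Mitophagy receptors sit on the outer membrane and bind Atg8 proteins directly. dct-1 encodes the homologue of the mammalian receptors BNIP3 and NIX (WBGene00015776, chromosome X, 7954354 to 7956225, plus strand). Its normalized counts were 231.7, 242.4 and 230.2 in the double mutant, 459.4, 381.0 and 388.1 in lonp-1(cmh24), 525.3, 463.5 and 473.4 in mrps-38(P210L), and 186.5, 195.7 and 197.1 in wildtype. Both single mutants were far above wildtype, whereas the double mutant lay just above it. dct-1 was 2.11-fold higher in lonp-1(cmh24) (1.08 ± 0.09, adjusted p = 1.93e-07) and 2.51-fold higher in mrps-38(P210L) (1.33 ± 0.09, adjusted p = 5.17e-08) than in wildtype. In the double mutant it was 1.21-fold higher than in wildtype (0.28 ± 0.09, adjusted p = 0.00977), which was lost with TMM factors (0.17, adjusted p = 0.0904). The double mutant was below lonp-1(cmh24) by -0.79 ± 0.09 (adjusted p = 6.93e-06) and below mrps-38(P210L) by -1.05 ± 0.09 (adjusted p = 7.73e-08). The difference of lonp-1(cmh24) from mrps-38(P210L), -0.25 ± 0.09 (adjusted p = 0.015), turned to 0.23 on FPKM. It was also lost with TMM factors and without lonp-1(cmh24) replicate 2, lonp-1(cmh24) replicate 3 or mrps-38(P210L) replicate 1. dct-1 shares 31 bases with sfxn-2 on the opposite strand. The library kit was stranded per the labels, but the strand setting of the counting is not given in the sources used here. sfxn-2 was below wildtype in the double mutant (-0.82 ± 0.07, adjusted p = 2.77e-07) and in lonp-1(cmh24) (-0.76 ± 0.07, adjusted p = 7.63e-07), opposite to dct-1. In mrps-38(P210L) it was above wildtype (0.30 ± 0.07, adjusted p = 0.002; 0.05 and not called on FPKM), in the direction of dct-1. It was also in the direction of dct-1 between the double mutant and mrps-38(P210L) (-1.12 ± 0.07, adjusted p = 5.79e-09). Between the double mutant and lonp-1(cmh24) it differed by -0.05 ± 0.07 (adjusted p = 0.552), and by -0.20 with TMM factors and -0.27 on FPKM, both called. The part of shared reads was not tested.

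fndc-1 encodes the homologue of the receptor FUNDC1 and acts in the removal of paternal mitochondria (WBGene00011528, chromosome II, 11236624 to 11237325, minus strand). Its normalized counts were 571.3, 521.7 and 553.9 in the double mutant, 646.5, 757.9 and 696.9 in lonp-1(cmh24), 635.0, 640.4 and 627.8 in mrps-38(P210L), and 620.9, 613.8 and 603.1 in wildtype. The whole span was small, with lonp-1(cmh24) at the top and the double mutant at the bottom. The double mutant was lower than lonp-1(cmh24) by -0.35 ± 0.06 (adjusted p = 0.000593). The double mutant's difference from wildtype, -0.16 ± 0.06 (adjusted p = 0.04), was lost on FPKM, with DESeq2 and without any of 8 single libraries. The difference of lonp-1(cmh24) from wildtype, 0.19 ± 0.06 (adjusted p = 0.0207), was lost without lonp-1(cmh24) replicate 2 (adjusted p = 0.101), without wildtype replicate 3 (adjusted p = 0.0624) and in a fit of those groups alone (adjusted p = 0.068). In mrps-38(P210L) the difference from wildtype was 0.05 ± 0.06 (adjusted p = 0.508), with the sign turned on FPKM (-0.20).

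allo-1 encodes the autophagy adaptor that marks paternal organelles in the embryo and binds LGG-1 (WBGene00011292, chromosome IV, 10695306 to 10697072, minus strand). Its normalized counts were 1907.3, 2048.1 and 1955.4 in the double mutant, 2340.0, 2146.0 and 2335.1 in lonp-1(cmh24), 884.8, 816.1 and 830.8 in mrps-38(P210L), and 718.1, 714.5 and 739.1 in wildtype. The genotypes did not overlap, and the libraries carrying lonp-1(cmh24) formed a group of their own far above the rest. allo-1 had the largest difference from wildtype of the 10 genes in lonp-1(cmh24), 3.14-fold (1.65 ± 0.05, adjusted p = 9.71e-11), and in the double mutant, 2.72-fold (1.44 ± 0.05, adjusted p = 7.92e-11). It was lower in the double mutant than in lonp-1(cmh24) by -0.21 ± 0.05 (adjusted p = 0.00578). In mrps-38(P210L) it was above wildtype by 0.22 ± 0.05 (adjusted p = 0.00265), but at -0.03 on FPKM.

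The FPKM ratio of dct-1 to fndc-1, a pair of outer membrane receptors, was 0.207 ± 0.0153 in the double mutant, 0.285 ± 0.0521 in lonp-1(cmh24), 0.371 ± 0.0257 in mrps-38(P210L) and 0.152 ± 0.00657 in wildtype (SD, n = 3). Each mutant exceeded every wildtype library, and no genotype overlapped another. The exact permutation test gave an adjusted p of 8.12e-05.

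pink-1 encodes the kinase that accumulates on damaged mitochondria and recruits the ubiquitin ligase Parkin, encoded by pdr-1. pink-1 (WBGene00017137, chromosome II, 5393293 to 5395694, minus strand) had normalized counts of 888.8, 781.6 and 775.4 in the double mutant, 750.2, 870.6 and 879.4 in lonp-1(cmh24), 479.7, 491.8 and 479.2 in mrps-38(P210L), and 539.6, 571.0 and 532.1 in wildtype. The double mutant and lonp-1(cmh24) overlapped, and both lay above the other genotypes. pink-1 was 1.52-fold higher in lonp-1(cmh24) (0.60 ± 0.07, adjusted p = 1.09e-05) and 1.49-fold higher in the double mutant (0.57 ± 0.07, adjusted p = 1.37e-05) than in wildtype, with -0.03 ± 0.07 (adjusted p = 0.747) between these mutants. Between them the value was -0.18 with TMM factors and -0.24 on FPKM, both called. In mrps-38(P210L) the difference of -0.18 ± 0.07 from wildtype was at the threshold (adjusted p = 0.0495). It was lost with edgeR, with DESeq2, with no filter on low values and on leaving out any of 10 single libraries.

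pdr-1 (WBGene00003967, chromosome III, 13771513 to 13773345, plus strand, 4 protein-coding transcripts) had normalized counts of 1118.7, 1087.1 and 1061.5 in the double mutant, 928.1, 1097.7 and 983.4 in lonp-1(cmh24), 714.4, 715.9 and 721.8 in mrps-38(P210L), and 871.8, 889.3 and 849.5 in wildtype. The 3 mrps-38(P210L) libraries were the lowest and nearly equal, and the double mutant overlapped lonp-1(cmh24) above wildtype. pdr-1 was higher than in wildtype in the double mutant (0.32 ± 0.06, adjusted p = 0.000336) and in lonp-1(cmh24) (0.20 ± 0.06, adjusted p = 0.0107). The call in lonp-1(cmh24) was lost without its replicate 2 (adjusted p = 0.0541). It was lower in mrps-38(P210L) than in wildtype (-0.28 ± 0.06, adjusted p = 0.00125). Between the double mutant and lonp-1(cmh24) the difference was 0.12 ± 0.06 (adjusted p = 0.107), and its sign turned on FPKM and with TMM factors. Without lonp-1(cmh24) replicate 2 it was 0.19 and called (adjusted p = 0.0144). pdr-1 shares 170 bases with mdt-29 on the same strand, so reads there could belong to either gene. mdt-29 in lonp-1(cmh24) was above wildtype by 0.28 ± 0.05 (adjusted p = 0.000613), and in the double mutant it was above wildtype by 0.26 ± 0.05 (adjusted p = 0.000782). In mrps-38(P210L) it differed from wildtype by 0.07 ± 0.05 (adjusted p = 0.311), and by -0.19 on FPKM, which was called (adjusted p = 0.00604). The double mutant was above mrps-38(P210L) by 0.20 ± 0.05 (adjusted p = 0.00448; not called with TMM factors). These called differences had the direction of those of pdr-1, and the part of shared reads was not tested.

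The FPKM ratio of pink-1 to pdr-1 was 0.467 ± 0.0254 in the double mutant, 0.519 ± 0.034 in lonp-1(cmh24), 0.421 ± 0.00731 in mrps-38(P210L) and 0.393 ± 0.00739 in wildtype (SD, n = 3). All mutant libraries, 0.414 at least, were above the wildtype range of 0.386 to 0.401. The ratio differed among genotypes (exact permutation test, adjusted p = 0.00013).

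lgg-1 and lgg-2 encode the worm's Atg8 proteins, lgg-1 of the GABARAP family and lgg-2 of the LC3 family. lgg-1 (WBGene00002980, chromosome II, 6346960 to 6347719, minus strand) had normalized counts of 5945.2, 5857.3 and 6057.9 in the double mutant, 6999.8, 7370.4 and 7097.1 in lonp-1(cmh24), 6073.2, 5777.5 and 5683.5 in mrps-38(P210L), and 4595.2, 4310.9 and 4427.7 in wildtype. All mutant libraries were above wildtype, lonp-1(cmh24) was highest, and the double mutant overlapped mrps-38(P210L). lgg-1 was higher than in wildtype by 0.42 ± 0.05 in the double mutant (adjusted p = 2.91e-06), by 0.69 ± 0.05 in lonp-1(cmh24) (adjusted p = 4.31e-08) and by 0.39 ± 0.05 in mrps-38(P210L) (adjusted p = 8.07e-06). The double mutant was below lonp-1(cmh24) by -0.27 ± 0.05 (adjusted p = 0.000394). Its difference from mrps-38(P210L) was 0.03 ± 0.05 (adjusted p = 0.598), with a value of -0.06 with TMM factors and 0.30 on FPKM.

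lgg-2 (WBGene00002981, chromosome IV, 10934196 to 10935903, minus strand) had normalized counts of 1610.8, 1619.5 and 1529.6 in the double mutant, 1577.2, 1607.9 and 1587.0 in lonp-1(cmh24), 1822.1, 1961.2 and 1875.2 in mrps-38(P210L), and 766.7, 795.3 and 874.1 in wildtype. The mutants all stood far above wildtype. The double mutant and lonp-1(cmh24) overlapped, and mrps-38(P210L) was above both. lgg-2 was 1.96-fold higher than in wildtype in the double mutant (0.97 ± 0.06, adjusted p = 4.84e-09), 1.96-fold in lonp-1(cmh24) (0.97 ± 0.06, adjusted p = 9.62e-09) and 2.32-fold in mrps-38(P210L) (1.22 ± 0.06, adjusted p = 3.54e-09). The double mutant and lonp-1(cmh24) differed by 0.00 ± 0.06 (adjusted p = 0.954), and by -0.16 with TMM factors and -0.22 on FPKM, both called. The excess of mrps-38(P210L) over both depended on the scale. The double mutant differed from it by -0.25 ± 0.06 (adjusted p = 0.000907) and by 0.02 on FPKM, and lonp-1(cmh24) by -0.25 ± 0.06 (adjusted p = 0.00111) and by 0.24 on FPKM.

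The FPKM ratio of lgg-1 to lgg-2 was 5.51 ± 0.265 in the double mutant, 6.6 ± 0.112 in lonp-1(cmh24), 4.55 ± 0.299 in mrps-38(P210L) and 8.06 ± 0.687 in wildtype (SD, n = 3). The wildtype libraries, 7.43 at least, were above all mutant libraries, 6.73 at most. Thus lgg-2 exceeded its wildtype level by more than lgg-1 did in each mutant (exact permutation test among the genotypes, adjusted p = 8.12e-05).

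In lonp-1(cmh24) against wildtype, which asks what the LON mutation alone does, 10 of the 10 genes were higher and 0 lower. Of all genes tested, 62.7% were called in that comparison, 30.6% as higher and 32.1% as lower. The median of the 10 was 0.64 and that of all genes was -0.06. allo-1, drp-1, dct-1 and lgg-2 were the 4 with the largest differences, from 1.65 to 0.97, and eat-3, fndc-1, pdr-1 and fzo-1 the 4 with the smallest, from 0.14 to 0.25. On FPKM 10 were again higher, with a median of 0.87, against a shift of the median gene of 0.228. In a fit of those groups alone 8 were called, with 9922 of all 15717 genes called, against 9848 in the fit of all libraries. The share of calls that were higher, over all genes, was 48.8% on normalized counts and 67.1% on FPKM.

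In mrps-38(P210L) against wildtype, the mitoribosomal mutation alone, 5 genes were higher and 3 lower, with 66.3% of all genes called, 31.5% as higher and 34.7% as lower. dct-1, lgg-2 and lgg-1 were the higher genes whose sign held on FPKM. drp-1 and allo-1 were also higher with TMM factors (0.16 and 0.20), but on FPKM they stood at -0.07 and -0.03 and were not called. eat-3, pdr-1 and pink-1 were the lower ones, pink-1 at the threshold. The median of the 10 was 0.12 and that of all genes was -0.01. On FPKM 3 were higher and 5 lower, with a median of -0.14, and the share of higher calls over all genes was 25.4%, against 47.6% on normalized counts. Without mrps-38(P210L) replicate 3, 5 were higher and 2 lower, the lost call being pink-1.

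In the double mutant against wildtype 8 genes were higher and 1, fndc-1, lower, with 74.5% of all genes called, 40.9% as higher and 33.6% as lower. allo-1, lgg-2, drp-1 and pink-1 led, from 1.44 to 0.57. All genes had a median of 0.09, and the 10 of 0.37. On FPKM 8 were higher and 0 lower, and with TMM factors 6 were higher and 2 lower. The share of higher calls over all genes was 54.9% on normalized counts, 56.6% on FPKM and 47.9% with TMM factors.

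The double mutant against lonp-1(cmh24) asks what the mitoribosomal mutation changes in lonp-1(cmh24) worms. Here 0 genes were higher and 6 lower, with 54.3% of all genes called, 29.8% as higher and 24.5% as lower. dct-1 was lower by the most, -0.79, followed by fndc-1, lgg-1, allo-1, drp-1 and eat-3, at -0.35 to -0.17. fzo-1, pink-1, pdr-1 and lgg-2 did not pass the test. Without lonp-1(cmh24) replicate 2, 1 gene, pdr-1, was higher and 6 lower. The 10 had a median of -0.17, against 0.03 for all genes. On FPKM and with TMM factors 9 were lower and 0 higher. The share of higher calls over all genes was 54.9% on normalized counts, 36.4% with TMM factors, which moved the median gene by -0.149, and 31.2% on FPKM.

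**Figure D3:**
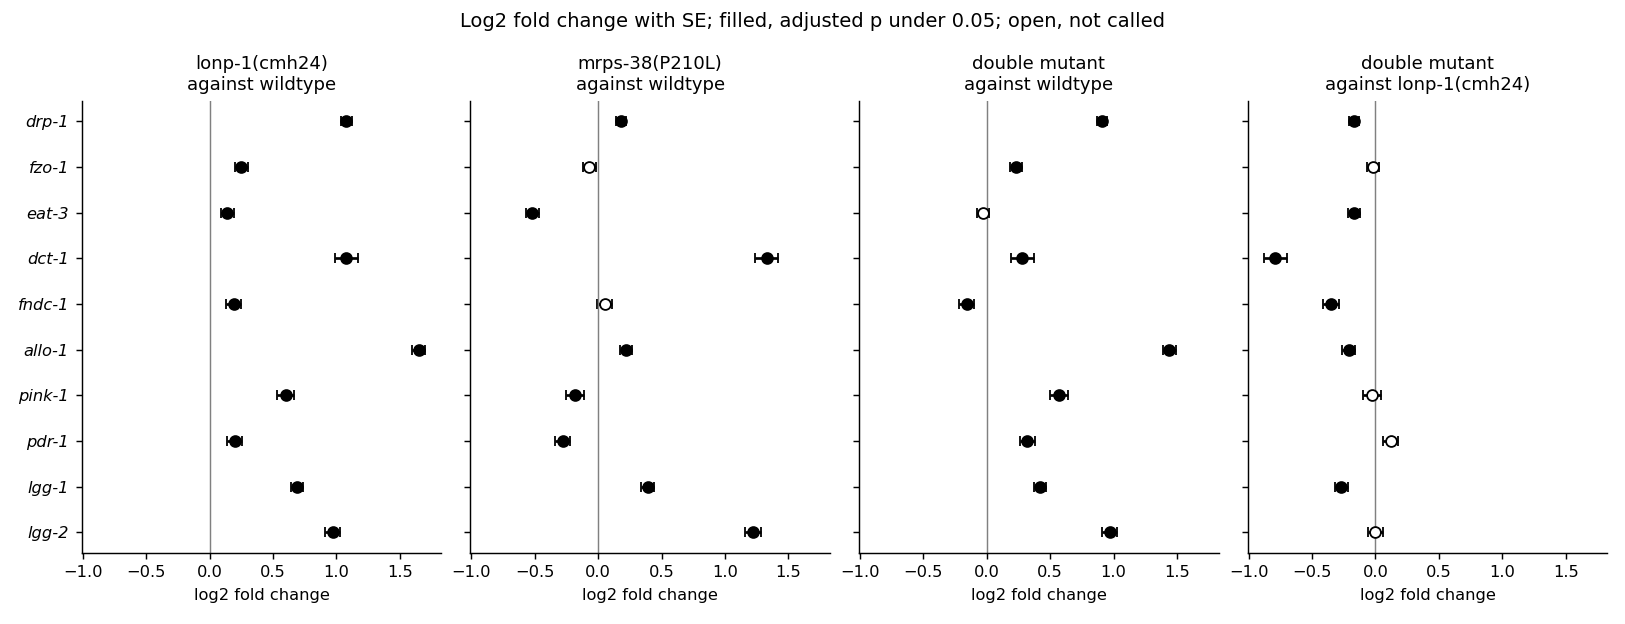
Log2 fold change with SE (x axis) of each of the 10 genes in 4 comparisons, from limma on normalized counts with 3 libraries per genotype. Filled points passed the adjusted threshold of 0.05 and open points did not. All 10 lie right of 0 in lonp-1(cmh24) against wildtype, and 6 filled points lie left of 0 in the panel of the double mutant set against lonp-1(cmh24). On FPKM, drp-1, allo-1 and fndc-1 in mrps-38(P210L) against wildtype and pdr-1 in the last panel change sign.

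The LON mutation was also measured within the mitoribosomal mutant. In the double mutant against mrps-38(P210L) 6 genes were higher and 3 lower, with 83.6% of all genes called, 43.6% as higher and 40.0% as lower. allo-1 (1.22 ± 0.05), pink-1 (0.75 ± 0.07), drp-1 (0.73 ± 0.04), pdr-1 (0.60 ± 0.06), eat-3 (0.49 ± 0.05) and fzo-1 (0.30 ± 0.05) were higher, with adjusted p from 1.84e-10 to 0.000109. dct-1 was lower by -1.05 ± 0.09, fndc-1 by -0.21 ± 0.06 (adjusted p = 0.00867; 0.06 on FPKM) and lgg-2 by -0.25 ± 0.06, whose sign also turned on FPKM. The median of the 10 was 0.39 and that of all genes was 0.05. On FPKM 7 were higher and 1 lower. The share of higher calls over all genes was 52.2% on normalized counts and 62.8% on FPKM.

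lonp-1(cmh24) set directly against mrps-38(P210L) gave 7 higher and 2 lower genes, with 81.5% of all genes called, 42.6% as higher and 38.8% as lower. allo-1 was 2.69-fold higher (1.43 ± 0.05), drp-1 1.86-fold (0.89 ± 0.04), pink-1 1.72-fold (0.78 ± 0.07) and eat-3 1.58-fold (0.66 ± 0.05), with adjusted p of 4.94e-07 or less. fndc-1 did not pass the test (0.14 ± 0.06, adjusted p = 0.0613), though it did with TMM factors, on FPKM and without lonp-1(cmh24) replicate 1, and the lower calls of dct-1 and lgg-2 turned on FPKM. The 10 had a median of 0.40 and all genes of 0.04. On FPKM 10 were higher and 0 lower, and the share of higher calls over all genes was 75.3%, against 52.3% on normalized counts. Comparisons that share a genotype are not independent of each other.

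The interaction term, (double mutant minus mrps-38(P210L)) minus (lonp-1(cmh24) minus wildtype), tests whether the difference made by the lonp-1 mutation was the same in both backgrounds. It was called for 8 of the 10 genes, 2 above 0 and 6 below, with 66.0% of all genes called, 34.4% above 0 and 31.6% below. For dct-1 it was -2.12 ± 0.12 (adjusted p = 1.39e-08), the largest of the 10. The lonp-1 mutation went with more dct-1 in wildtype worms and with less in mrps-38(P210L) worms. For lgg-2 it was -1.22 ± 0.08 (adjusted p = 3.55e-08) and for lgg-1 -0.66 ± 0.07 (adjusted p = 1.72e-06). Each mutation alone went with more lgg-2, while the difference between the double mutant and lonp-1(cmh24) did not pass the test. Smaller values below 0 were found for allo-1 (-0.43 ± 0.08, adjusted p = 0.000251), fndc-1 (-0.40 ± 0.09, adjusted p = 0.00179) and drp-1 (-0.35 ± 0.06, adjusted p = 0.000137). eat-3 (0.35 ± 0.06, adjusted p = 0.000332) and pdr-1 (0.40 ± 0.09, adjusted p = 0.00111) lay above 0. Both were lower in mrps-38(P210L) than in wildtype, and in the double mutant they stood at -0.03 and 0.32 against wildtype. fzo-1 (0.05 ± 0.07, adjusted p = 0.539, below 0 with TMM factors) and pink-1 (0.15 ± 0.11, adjusted p = 0.233) did not pass. The median of the 10 was -0.38 and that of all genes was 0.00, and FPKM and TMM factors gave the same split of 2 and 6.

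**Figure D4:**
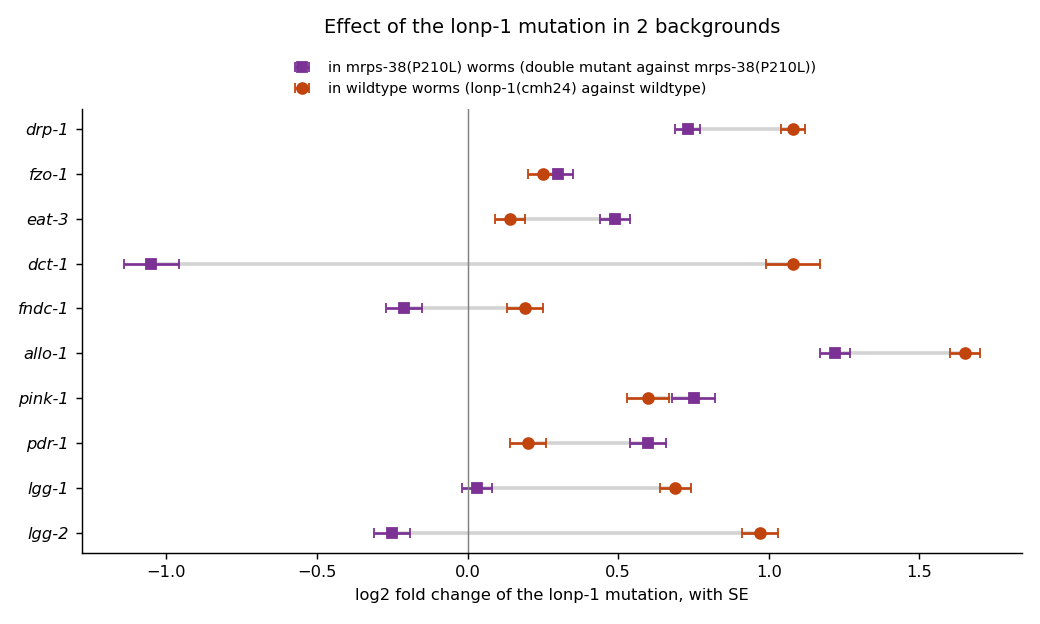
Log2 fold change with SE (x axis) made by the lonp-1 mutation in mrps-38(P210L) worms (squares) and in wildtype worms (circles), on normalized counts, with 3 libraries per genotype. dct-1 and lgg-2 lie on opposite sides of 0 in the 2 backgrounds, as does fndc-1, while fzo-1 and pink-1 lie close together; on FPKM the squares of lgg-2 and fndc-1 lie right of 0.

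A wider list of 53 entries for mitochondrial dynamics and autophagy, set up from general knowledge with earlier results of these data known, gave 51 further genes in the table, of which 50 were tested. In lonp-1(cmh24) against wildtype 25 were higher and 8 lower, with a median of 0.21. Over all genes 62.7% were called, 30.6% as higher and 32.1% as lower. On FPKM 36 were higher and 3 lower, and 67.1% of the calls over all genes were higher. Of 5 fission factors 3 were higher, led by mff-2 (1.75 ± 0.09, adjusted p = 3.83e-09), related to the mammalian receptor MFF that brings the dynamin to mitochondria. Of 9 genes of inner membrane shape and quality control 4 were higher and 3 lower. stl-1, a stomatin-like protein, was 3.51-fold higher (1.81 ± 0.05, adjusted p = 5.18e-11) and ymel-1, the i-AAA protease whose mammalian homologue cuts OPA1, was 1.41-fold higher (0.50 ± 0.06). moma-1 (-0.45 ± 0.05) and chch-3 (-0.41 ± 0.05), members of the MICOS complex of cristae junctions, were lower. Among 6 mitophagy regulators 4 were higher and 1, pgam-5, lower by -0.26 ± 0.06 (-0.04 on FPKM). ikke-1, the kinase that acts with ALLO-1, was higher by 0.93 ± 0.05 and sqst-1, the p62 homologue, by 0.73 ± 0.12. Among 25 autophagy core genes 13 were higher, led by epg-4 (1.26 ± 0.11) and atg-13 (0.92 ± 0.08), and 2 lower, epg-3 (-0.53 ± 0.10) and atg-4.1 (-0.22 ± 0.06, 0.01 on FPKM). Of 5 transport genes 1 was higher and 2 lower, and the lower ones, trak-1 and miro-1, stood at -0.03 and 0.04 on FPKM.

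In mrps-38(P210L) against wildtype 25 of the 50 were higher and 4 lower, with a median of 0.18. On FPKM 11 were higher and 17 lower. The share of higher calls over all genes was 25.4% on FPKM, against 47.6% on normalized counts. On normalized counts 66.3% of all genes were called, 31.5% as higher and 34.7% as lower. Without mrps-38(P210L) replicate 3 there were 25 higher and 7 lower. epg-9, the ATG101 homologue of the autophagy-starting kinase complex, was 2.73-fold higher (1.45 ± 0.08, adjusted p = 2.05e-08), with mean normalized counts of 1063.5 ± 26.9 in mrps-38(P210L) and 390.5 ± 45.3 in wildtype (SD, n = 3). unc-51, the kinase of that complex, was higher by 0.79 ± 0.11. hlh-30, the TFEB homologue that drives autophagy genes, was higher by 0.92 ± 0.06, and skn-1, the NRF2 homologue, by 0.64 ± 0.05. The mitofilin genes moved apart, with immt-1 higher by 0.97 ± 0.08 and immt-2 lower by -1.14 ± 0.09 (adjusted p = 4.01e-07), and phb-1, a prohibitin, was higher by 0.67 ± 0.05. Of 5 fission factors 3 were higher and 1, fis-1, lower. fis-2 had a mean normalized count of 803.4 ± 20.8 in mrps-38(P210L) and 554.5 ± 9.8 in wildtype, and mff-1 had 137.5 ± 14.4 and 101.9 ± 17.2. fis-1 had a mean normalized count of 3.9 ± 3.7 in mrps-38(P210L) and 61.6 ± 10.3 in wildtype (-3.94 ± 0.40, adjusted p = 4.18e-06). It had 219.2 ± 31.8 in the double mutant and 60.6 ± 10.6 in lonp-1(cmh24). Its order over the genotypes was close to that of the major sperm protein share, 0.744% in the double mutant, 0.161% in lonp-1(cmh24), 0.00721% in mrps-38(P210L) and 0.117% in wildtype, whose part was not tested.

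In the double mutant against wildtype 21 of the 50 were higher and 11 lower, with a median of 0.15. Over all genes 74.5% were called, 40.9% as higher and 33.6% as lower. With TMM factors 19 were higher and 17 lower (median 0.03). The share of higher calls over all genes was 47.9% with these factors, against 54.9% on normalized counts. Without wildtype replicate 3 the counts among the 50 were 19 and 7. mff-2 (1.52 ± 0.09), stl-1 (1.47 ± 0.05), epg-4 (1.10 ± 0.11) and ikke-1 (0.87 ± 0.05) were higher, as in lonp-1(cmh24), and so was mtx-1, a metaxin of the outer membrane (0.66 ± 0.06). atg-10 (-1.16 ± 0.23) and epg-2 (-1.05 ± 0.10) were lower. Against lonp-1(cmh24) 11 were higher and 14 lower, where 54.3% of all genes were called. There were 4 higher and 31 lower with TMM factors, and 4 and 33 on FPKM. Over all genes 54.9% of the calls were higher on normalized counts, 36.4% with TMM factors and 31.2% on FPKM. On normalized counts the 11 higher genes fell to 6 without double mutant replicate 3, and to 7 without lonp-1(cmh24) replicate 2 or replicate 3. The lower counts were then 12, 16 and 13. Against mrps-38(P210L), where 83.6% of all genes were called, 14 were higher and 21 lower, with 24 higher and 10 lower on FPKM. Of the calls over all genes, 52.2% were higher on normalized counts and 62.8% on FPKM. lonp-1(cmh24) against mrps-38(P210L) gave 20 higher and 15 lower, where 81.5% of all genes were called. On FPKM 39 were higher and 6 lower. There 75.3% of the calls over all genes were higher, against 52.3% on normalized counts. The interaction was below 0 for 28 of the 50 and above for 8, with a median of -0.26, and 27 and 8 on FPKM. With TMM factors 32 lay below and 3 above. There 44.2% of the calls over all genes lay above 0, against 52.2% on normalized counts. On normalized counts 66.0% of all genes were called, 34.4% above 0 and 31.6% below, so the 36 called among the 50 are near the background. It was -1.58 ± 0.12 for epg-9, -1.04 ± 0.16 for unc-51 and -1.03 ± 0.09 for hlh-30. Of the 25 autophagy core genes 16 lay below 0 and 1, epg-5, above it. immt-2 had 1.93 ± 0.13 (adjusted p = 6.4e-08), with mean normalized counts of 1594.8 ± 37.3 in the double mutant, 923.8 ± 121.9 in lonp-1(cmh24), 515.8 ± 48.7 in mrps-38(P210L) and 1134.3 ± 76.5 in wildtype.

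**Figure D5:**
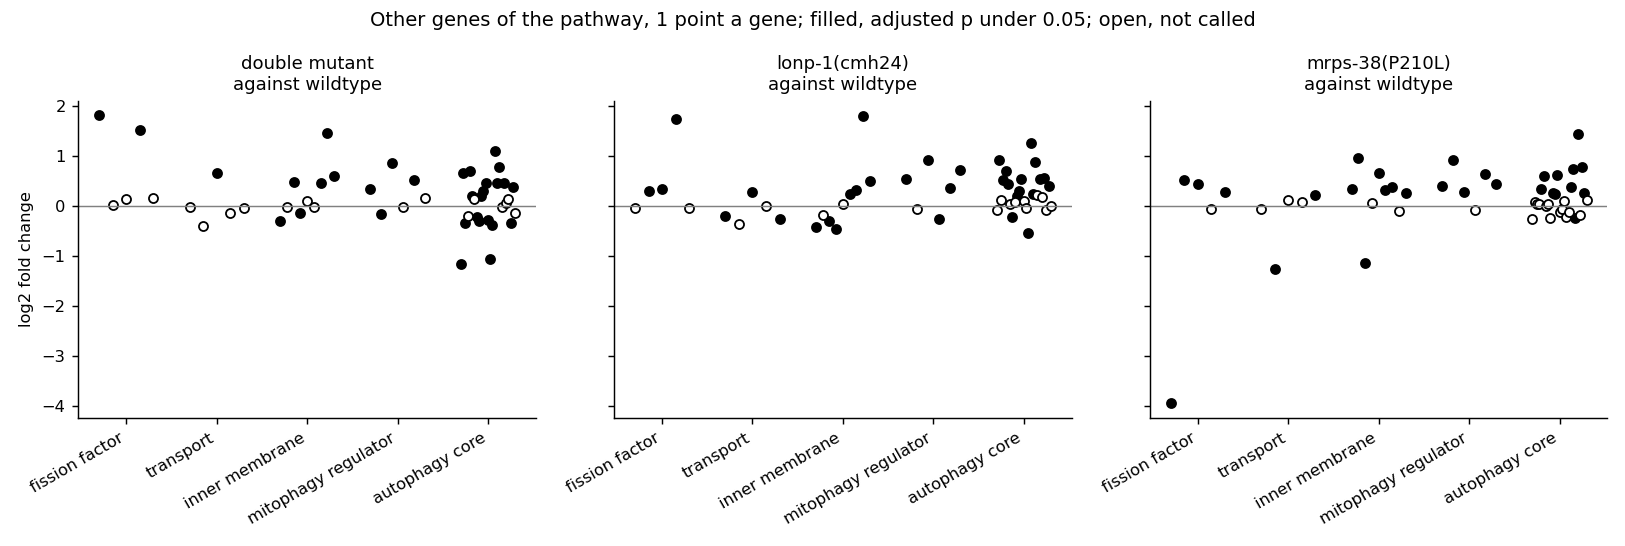
Log2 fold change against wildtype (y axis) of the 50 further tested genes of mitochondrial dynamics and autophagy, by role (x axis), in the double mutant, lonp-1(cmh24) and mrps-38(P210L), on normalized counts. Each point is a gene, filled where the adjusted p was under 0.05. The point near the bottom of the mrps-38(P210L) panel is fis-1 at -3.94. On FPKM 11 of the genes are higher and 17 lower in that panel, where 25.4% of the calls over all genes are higher.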

How the data were processed

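Total RNA of whole worms was sequenced from stranded paired-end libraries, per the labels' protocols. The submitters' processing notes name STAR, featureCounts, DESeq2 and the build WBcel235, and the sources used here do not give versions. The 2 deposited files were the authors' normalized count table, a signal per gene and library scaled by 1 size factor per library, and an FPKM table. Values of the deposited normalized counts were whole multiples of 1 step per library (100.0% within 0.01), which gave back the reads. Size factors were 0.8479 to 1.2153. The authors' FPKM followed from these reads to within a relative deviation of 1.8e-14. Counting error was not separated from other spread. It weighs more where reads are few, as for dct-1, with 188 to 206 reads in the wildtype libraries. The same holds for fis-1, with a mean normalized count of 3.9 in mrps-38(P210L).

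The test was limma 3.58.1 in R 4.3.3, robust and with a trend (statmod 1.5.0), on log2 of normalized count + 1. All 12 libraries entered 1 fit of 15717 genes whose mean was 10 or more. Tests were two-sided, adjusted by Benjamini-Hochberg, with a threshold of 0.05. Fold changes on this scale understate low genes. On reads, edgeR 4.0.16 called 10561 genes in lonp-1(cmh24) against wildtype, where limma called 9848. The log2 of each ratio of normalized counts, with 1 added to both counts, was tested by exact permutation. The FPKM ratios gave the same adjusted p. Other alternatives were DESeq2 1.42.0, TMM factors, FPKM (+ 0.1, mean of at least 0.5), pseudocounts of 0.5 and 5, other filters, no robust option, fits restricted to the groups compared, a replicate block, and each library left out. Gene positions in the files equal those of Ensembl release 115 for all 10 genes. The genes, lists and tests were chosen with earlier results of these data known. Further genes are named by a rule that takes up to 2 called genes per role and direction with the largest change in each comparison. Neighbours that overlap a member and lonp-1 are also given, and the 2 genes most like each member are named by Pearson's r.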

Additional observations from a re-analysis of the deposited data

Results flagged for a closer look

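For 8 of the 10 genes the difference made by the lonp-1 mutation was not the same in mrps-38(P210L) worms and in wildtype worms, by limma's interaction term with Benjamini-Hochberg adjustment over all genes. Its value was -2.12 for dct-1, -1.22 for lgg-2, -0.66 for lgg-1, -0.43 for allo-1, -0.40 for fndc-1 and -0.35 for drp-1 on the log2 scale. It was 0.40 for pdr-1 and 0.35 for eat-3. Over all genes tested 66.0% were called for this term, so the number called among the 10 is near the background. The yolk and sperm gene shares were also far apart among the genotypes, and their part in these values was not tested.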

How the results depend on the processing

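Apart from leaving out libraries, the 11 sign changes found all came with another scaling of the libraries. Relative to normalized counts, FPKM turned the sign of drp-1 (-0.07), fndc-1 (-0.20) and allo-1 (-0.03) in mrps-38(P210L) against wildtype, of fndc-1 (0.06) and lgg-2 (0.02) in the double mutant against mrps-38(P210L), of dct-1 (0.23) and lgg-2 (0.24) in lonp-1(cmh24) against mrps-38(P210L), and of pdr-1 (-0.09) between the double mutant and lonp-1(cmh24). TMM factors turned pdr-1 in that last comparison (-0.03), lgg-1 (-0.06) in the double mutant against mrps-38(P210L) and the interaction of fzo-1 (-0.08). The cause was not tested. With each library left out in turn, signs turned between the double mutant and lonp-1(cmh24) for fzo-1 (-0.06 to 0.00), pink-1 (-0.10 to 0.01) and lgg-2 (-0.02 to 0.02), none of them called. Total counts of called genes among the 10 and among the 50, both directions together, stayed within 1.5 times under every alternative run. The fit of only the groups compared does not apply to the interaction. Same-numbered replicates did not vary together: of 18 pairs 1 had a correlation above 0.1 (range -0.159 to 0.122), and 3 libraries were closest to their own number. With a replicate block 10 genes were called in lonp-1(cmh24) against wildtype, 7 in mrps-38(P210L) against wildtype and 8 in the double mutant against wildtype. Of all 15717 genes tested, the block called 9758, 10320 and 11612 in these comparisons. The calls lost under the block were pink-1 in mrps-38(P210L) (adjusted p = 0.069) and fndc-1 in the double mutant (adjusted p = 0.0588), and the ratio tests gave an adjusted p of 0.00174, the smallest the block allows. With 3 libraries per genotype and at these depths, differences of about 0.2 on the log2 scale lie near the limit of the test.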

Other observations

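Among 7168 named protein-coding genes with a mean of at least 50, those whose log2 levels over the 12 libraries were most like each of the 10 were listed with Pearson's r, as a description with no test, since the 12 libraries fall into 4 genotypes and share their scaling. drp-1 and allo-1 had the same closest genes, kap-1 (r = 0.9948 and 0.9946), which encodes the kinesin-associated protein of kinesin-2, and scrm-4 (0.991 and 0.9937). drp-1 and allo-1 also followed each other, with r = 0.998. For lgg-1 the closest were clec-17 (0.9822) and fmo-2 (0.9798), a flavin-containing monooxygenase, for lgg-2 btbd-10 (0.9813) and mnk-1 (0.9806), and for dct-1 clec-76 (0.9852) and vhp-1 (0.9819), a MAP kinase phosphatase. For pink-1 they were mel-26 (0.9917) and spas-1 (0.9892), for pdr-1 csn-3 (0.9923) and nyn-1 (0.9889), for fzo-1 pch-2 (0.9913) and psf-3 (0.9912), and for eat-3 rrf-1 (0.9891) and snx-27 (0.9884). For fndc-1 they were unc-37 (0.9583) and lido-13 (0.9239).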
